A study of Solanum lycopersicum with 29 samples.

Results

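A set of 150 tomato genes was expressed at another level in anthers of wild type (WT) than in anthers of 3 hormone-related lines, 35S:nahG, Never ripe and 35S:asCCD7, in the same direction at both temperatures. The genes were selected on the differences themselves. Reads per gene were converted to log2(CPM + 0.5), where CPM is counts per 1000000 counted reads of a library, and group means were compared. A gene passed when each of the 3 lines differed from WT by at least 1.5-fold on that scale in the same direction in CT and in LTMH, which 198 of the 28060 genes with at least 1 read did (0.706%). After 4 genes were set aside by identifier, the 150 with the largest minimum absolute difference over the 6 comparisons were kept as members, of which 73 were higher and 77 lower in the lines than in WT. The remaining 44 ranked below them.

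The 29 libraries came from anthers of Micro-Tom plants, with 6 anthers pooled per library. Control plants (CT) grew at day and night temperatures of 25 and 19°C at 50% relative humidity, and plants in long-term mild heat (LTMH) were moved at flowering to 34°C and 28°C at 68% and sampled after 8 days. The lines were WT, 35S::nahG (written 35S:nahG here), in which a bacterial enzyme that degrades salicylic acid (SA) is expressed from the constitutive 35S promoter and which was introgressed into Micro-Tom, the ethylene-insensitive mutant Never ripe, and 35S::asCCD7 (35S:asCCD7), which carries an antisense construct against the strigolactone biosynthesis gene CCD7. Each line had 4 CT libraries and 3 LTMH libraries, except for 4 LTMH libraries in 35S:asCCD7. The replicates are described as biological, and how many plants or independent transformants stand behind a group is not given in the sources used here, so p-values measure the spread between pooled-anther libraries.

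The same 7 WT libraries served in all 6 comparisons, 4 in CT and 3 in LTMH. A deviation of those libraries entered the comparison with each of the 3 lines at that temperature, so a level particular to the WT plants and a change shared by the 3 lines cannot be told apart here. The libraries held between 32273189 and 42353956 counted reads, so that 3 reads stood for 0.0870 CPM at the median depth. The stamen identity gene TAP3 was at 808 CPM or more in every library, and the ovule gene TAGL11 was at most at 0.402 CPM. Markers of the tapetum, the nutritive cell layer around the pollen, differed widely between groups (CYP703A2 at 2722 ± 503 CPM in 35S:nahG CT and 3.23 ± 0.349 CPM in 35S:nahG LTMH, SD, n = 4 and 3), and their part in the results was not tested. Reads of CCD7 were highest in the antisense line, with 14.1 ± 5.48 CPM in CT beside 1.43 ± 0.242 CPM in WT (SD, n = 4 each), where counting was not stated to separate strands. In bulk anthers, fewer cells of a type and less RNA per cell cannot be told apart.

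The 3 lines act on different hormones. SA is a phenolic hormone best known for defence against pathogens, and NahG converts it to catechol. Ethylene is perceived by membrane receptors that repress its signalling until the hormone binds, and in Never ripe an altered receptor no longer responds to it. Strigolactones derive from carotenoids cleaved by CCD7 and restrain shoot branching. The members are therefore defined by what lines with distinct hormone defects have in common beside WT.

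Since WT differed from every line by choice, the line-against-WT values below are a description and carry no test. The smallest of a member's 6 absolute differences had a median of 1.18 for the higher members and 0.99 for the lower members on the log2 scale. It reached 1 in 83 members and 2 in 29. Of all genes with reads, each single comparison passed the threshold for between 6.40% (35S:asCCD7 in CT) and 12.1% (35S:nahG in CT). The 7 WT libraries did not overlap with the 22 line libraries in 114 members (61 higher and 53 lower), a property that the choice favours and that 210 of the 28060 genes had (0.748%). The 3 lines lay within 1 log2 unit of each other, as differences from WT, in 131 members in CT and in 131 in LTMH.

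**Figure D1:**
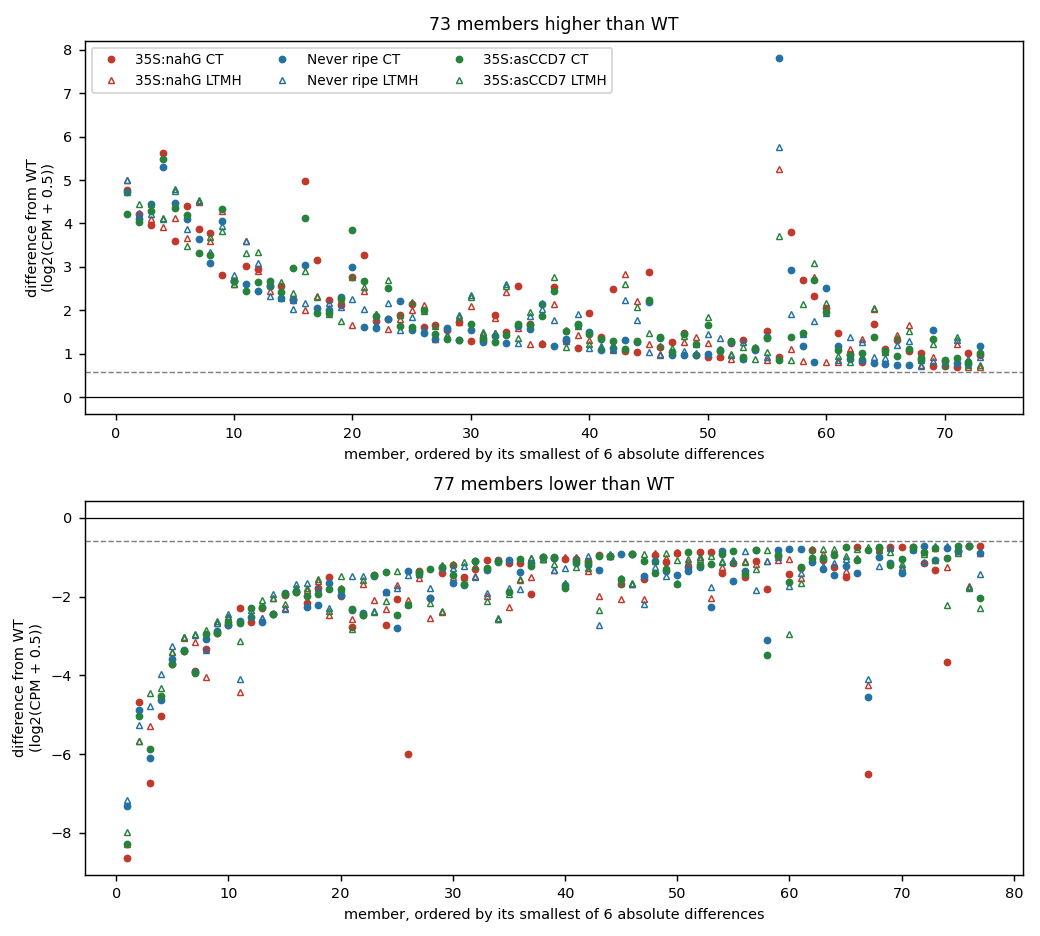
Difference of each line from WT on the log2(CPM + 0.5) scale (vertical axis) for the 73 higher members (upper panel) and 77 lower members (lower panel), ordered by the smallest of 6 absolute differences; filled circles are CT, open triangles LTMH, and the dashed line marks the threshold of the selection. Most members show 6 close points, and a few such as the sesquiterpene synthase gene (up to 7.81 in Never ripe CT) spread widely.

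The largest difference belonged to Solyc06g035940 on chromosome 6, which encodes a homeodomain-leucine zipper protein with a START domain, annotated as ROC5. Proteins of this class are transcription factors, many of which act in the epidermis of plant organs. Its WT libraries stood at 197, 197, 245 and 286 CPM in CT and at 323, 327 and 357 CPM in LTMH. The 35S:nahG libraries stood at 0.0310, 0.174, 0.0587 and 0.0590 CPM in CT and at 0.733, 0.406 and 0.588 CPM in LTMH. In Never ripe the levels were 2.83, 0.519, 1.01 and 0.337 CPM in CT and 0.200, 4.19 and 3.44 CPM in LTMH. In 35S:asCCD7 they were 0.211, 0.172, 0.118 and 0.517 CPM in CT and 0.0281, 0.318, 5.82 and 0.637 CPM in LTMH. Thus no line library reached 6 CPM and no WT library fell under 190 CPM, and the log2 differences ran from −8.63 (35S:nahG in CT) to −7.16 (Never ripe in LTMH). The mean over WT was 460 times the mean over the line libraries in CT and 205 times in LTMH.

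Next among the lower members came Solyc02g079550, which encodes a protein kinase domain of the tyrosine kinase family as domain databases name it. WT libraries held 26.4, 41.5, 22.5 and 39.5 CPM in CT and 68.9, 51.1 and 45.5 CPM in LTMH, and the highest of the 22 line libraries held 1.43 CPM. Its neighbour Solyc02g079540, a G-type lectin S-receptor-like serine/threonine kinase, was at 8.47 CPM in WT CT and at no more than 0.274 CPM in any line library. Receptor-like kinases of this kind carry a lectin domain outside the cell and a kinase domain inside it.

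Solyc04g074540, with the N-terminal domain of alcohol dehydrogenases (ADH_N), had 242 ± 36.5 CPM in WT CT and 135 ± 24.9 CPM in WT LTMH (SD, n = 4 and 3). The line libraries ran from 0.868 CPM in a 35S:nahG CT library to 7.22 CPM in a 35S:asCCD7 LTMH library. Solyc03g096260, a yippee-like protein with a conserved zinc-binding fold, had 12.2 to 22.4 CPM over the WT libraries and at most 0.905 CPM in a line library, and 3 of the 4 libraries of 35S:nahG CT held no read of it. Solyc06g009890, of unknown function, had 4.04 to 8.02 CPM in WT, no read in any of the 7 libraries of 35S:nahG and up to 1.30 CPM in 35S:asCCD7 LTMH. Solyc12g006260, described as a glycine rich protein-interacting protein, was at 5.18 ± 1.83 CPM in WT CT and 25.6 ± 1.77 CPM in WT LTMH (SD, n = 4 and 3), and its line libraries ran from 0.130 to 3.96 CPM, so that 1 line library lay above the lowest WT library, at 3.45 CPM. Solyc06g005050, with an F-box domain as in the subunits that select targets for ubiquitin ligases, had 8.47 to 11.6 CPM in WT and 0.753 to 2.01 CPM in the lines.

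Of the higher members, Solyc07g061750 on chromosome 7 had the largest minimum difference. In WT it was at 0.334, 0.141, 0.145 and 0.333 CPM in CT and at 0.209, 0.174 and 0.357 CPM in LTMH. In 35S:nahG it was at 21.4, 16.5, 17.1 and 24.3 CPM in CT and 21.8, 22.3 and 25.8 CPM in LTMH, and in Never ripe at 20.7, 17.9, 19.4 and 18.2 CPM in CT and 21.9, 23.2 and 24.4 CPM in LTMH. In 35S:asCCD7 the libraries held 14.7, 15.3, 12.8 and 10.4 CPM in CT and 26.4, 18.6, 17.2 and 16.1 CPM in LTMH. All 22 line libraries thus lay above 10 CPM and all WT libraries under 0.4 CPM. The next gene by number, Solyc07g061760, was at most at 0.333 CPM in WT and at 4.42 to 17.0 CPM in the lines, and Solyc07g061930, an unknown protein further along, was at most at 0.357 CPM in WT and at 4.13 to 11.8 CPM in the lines. No annotation was found in the sources used for the first pair.

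Several of the higher members with the largest minimum difference lay on chromosome 4. Solyc04g050245 had at most 0.239 CPM in WT and 8.20 to 14.3 CPM in the lines, with log2 differences of at least 4.03. Solyc04g025560, with the Arf domain of small GTPases that organise vesicle budding, had at most 0.269 CPM in WT and 8.41 to 16.2 CPM in the lines. Solyc04g064763 had 1.21, 7.06, 1.39 and 0.848 CPM in WT CT and 9.15, 9.34 and 1.90 CPM in WT LTMH, where the lines had 89.6 to 137 CPM. Its neighbour Solyc04g064765 was also highest in the same 3 WT libraries (1.10, 0.957 and 0.899 CPM beside 0.121 to 0.268 CPM in the other 4) and had 8.47 to 22.1 CPM in the lines. Solyc04g081610, of unknown function, had at most 2 reads in a WT library and 54 to 252 reads in each line library.

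Away from chromosome 4, Solyc12g042800 had 0.243 to 1.47 CPM in WT and 11.3 to 37.1 CPM in the lines, and 35S:nahG CT (12.4 CPM on average) lay below Never ripe CT (23.1 CPM) and 35S:asCCD7 CT (21.2 CPM). Solyc07g008560 encodes a purple acid phosphatase, a metal-containing enzyme that releases phosphate from organic compounds. It had 1.97 to 3.03 CPM in WT, 20.2 ± 5.77 CPM in 35S:nahG CT and 60.6 ± 3.66 CPM in 35S:nahG LTMH (SD, n = 4 and 3). In 35S:asCCD7 LTMH the libraries held 16.5, 63.7, 60.2 and 57.6 CPM, so that replicate 1 lay near the 35S:nahG CT level. Solyc01g015250, an unknown protein, was uniform among the lines, at 2.49 to 4.22 CPM beside at most 0.180 CPM in WT. Solyc10g050323 had 3.24 to 8.31 CPM in the lines, with 0.850, 0.395, 0.0290 and 0.878 CPM in WT CT and at most 0.0870 CPM in WT LTMH.

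**Figure D2:**
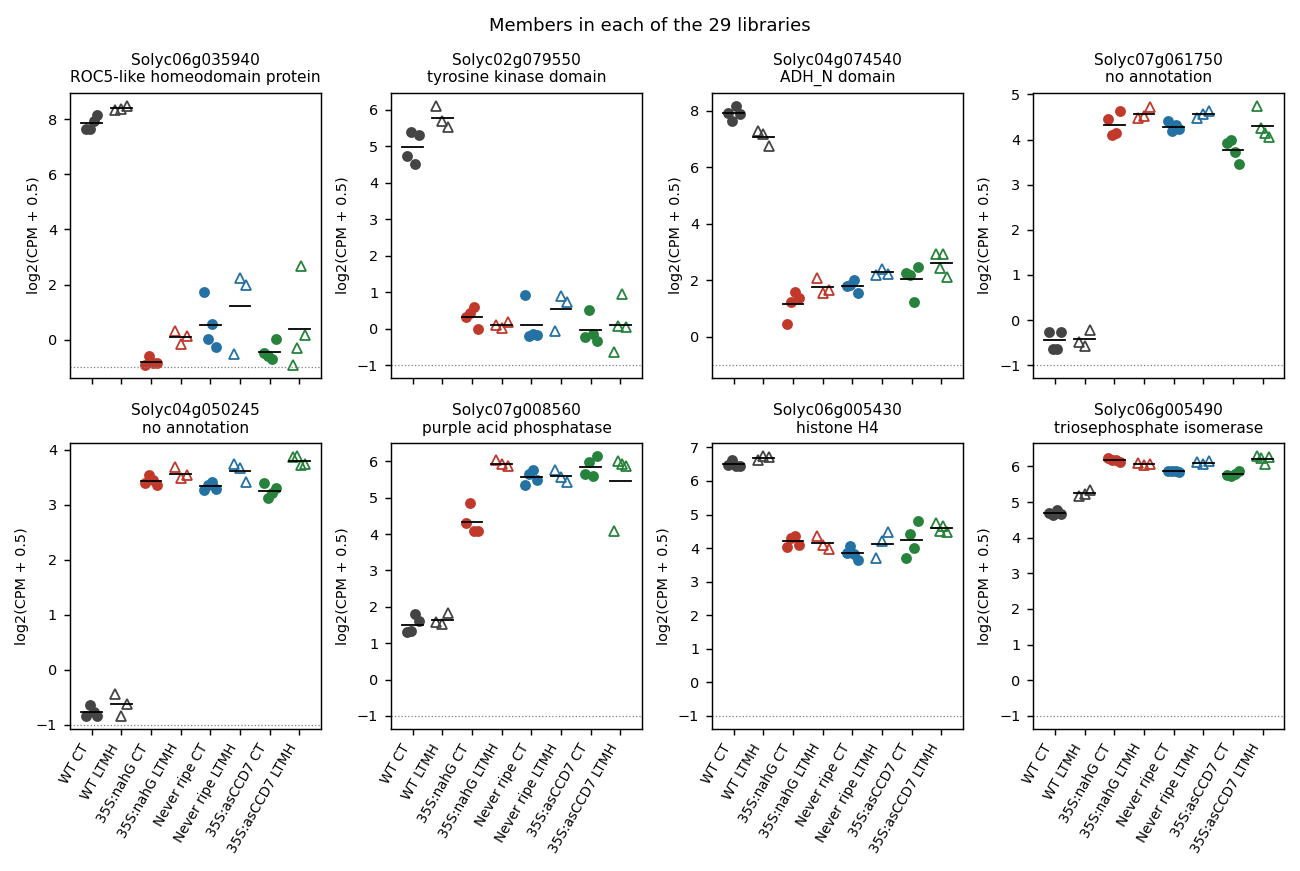
Level of 8 members in each library, as log2(CPM + 0.5), by line and temperature; filled circles are CT libraries, open triangles LTMH libraries, black bars group means, and the dotted line is a level of 0 reads. The WT points lie apart from all line points in each panel, above them for the first 3 genes and histone H4 and below them for the others.

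At the limit of detection, 11 higher members had at most 3 reads in each WT library, and 9 lower members had at most 3 reads in each line library. Solyc05g012827, an unknown protein, had 2 reads in 1 WT library, none in the other 6 and 26 to 60 reads in each line library, at least 14.9-fold higher than WT in LTMH, with the fold computed against 3 reads per WT library. Solyc04g081655 had 1.57 CPM in WT LTMH and 2.23 CPM in WT CT and no read in the 12 line libraries of CT, at least 26.1-fold lower. Solyc01g060350 and Solyc05g012823 had no read in any WT library, and Solyc12g021260 had none in any line library; these 3 were picked out after their values were seen. No fold against WT is a test, since the members were chosen for it.

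At the edge of the selection, the last 3 members were Solyc02g081550, Solyc03g114960 and Solyc07g006170, with smallest differences of 0.71, 0.70 and 0.69. The next 3 genes outside were Solyc11g040263, Solyc12g044987 and the RNA gene ENSRNA050030473, with 0.69, 0.68 and 0.68. Solyc03g114960, with the membrane domain of ABC transporters, was at 52.6 to 66.9 CPM in WT and 87.6 to 124 CPM in the lines. Libraries of Solyc02g081550 and Solyc07g006170 overlapped between WT and the lines. The edge thus falls within a run of close values.

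Members were spread over the range of expression. On the FPKM scale, which corrects for gene length, their mean over all libraries had a median of 3.26, beside 4.24 over all genes with a read, and 40 members reached 10 FPKM while 44 stayed under 1 FPKM. The 5 most abundant were Solyc04g081810 (771 FPKM), the late embryogenesis abundant protein gene Lea5 (Solyc09g075210, 309 FPKM), histone H4 (Solyc06g005430, 118 FPKM), dihydrofolate reductase (Solyc04g074950, 49.8 FPKM) and triosephosphate isomerase (Solyc06g005490, 49.5 FPKM). Histone H4 is a core protein of the nucleosome. Its WT libraries held 87.7, 97.6, 87.4 and 87.1 CPM in CT and 97.6, 106 and 104 CPM in LTMH, and the 22 line libraries held 12.0 to 27.6 CPM. Triosephosphate isomerase interconverts the triose phosphates of glycolysis, and its gene was at 24.5 to 39.7 CPM in WT and 52.7 to 77.2 CPM in the lines. Other copies of histone H4 exist in plant genomes, and reads of near-identical copies can be split or lost in counting, so the level of a single copy is uncertain.

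Identifiers of the form Solyc04g carry the chromosome number, and their numbers run along the chromosome, so that the order of the members could be read without coordinates. Chromosome 4 held 28 members, 18.7% of the set beside 7.99% of all genes with reads. Chromosome 6 held 20 (13.3% beside 8.75%), of which 18 were lower than WT, and chromosome 7 held 19 (12.7% beside 7.28%), of which 15 were higher. Chromosome 12 held 15 (10% beside 6.79%) and chromosome 2 held 14 (9.33% beside 10.3%). Chromosomes 3 and 5 held 11 each (7.33%, beside 10.1% and 6.79%), and chromosome 1 held 9 (6% beside 12.4%). Chromosome 11 held 1 member among 1832 genes and chromosome 9 held 4 among 1999. The order was not part of the selection, and no test of it was made.

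Some members also stood close together. With at most 10 other genes with reads between successive members, 10 blocks of 3 or more held 53 members (35.3%). Direct neighbours made up 25 pairs of members, and 87 members had another member that near. The same counts were not made for other sets of genes, so they have no background here. The 10 blocks were drawn around members and spanned 187 genes with reads, most of which were not members. The authors counted with default parameters and named no strand setting. Reads of genes that overlap, in particular those with neighbouring numbers, may therefore be misassigned or lost.

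**Figure D3:**
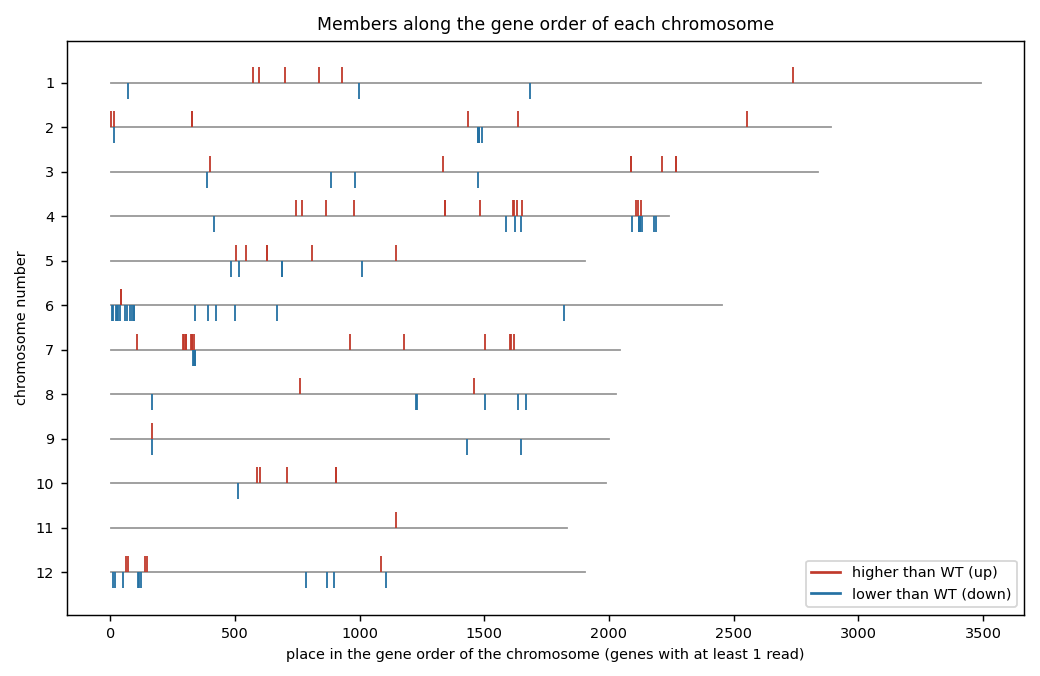
Place of the members in the order of genes with at least 1 read (horizontal axis) on chromosomes 1 to 12 (vertical axis); red ticks point up for members higher than WT and blue ticks point down for lower members. Ticks crowd at the start of chromosome 6, near the start of chromosomes 7 and 12 and towards the end of chromosome 4.

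On chromosome 7 a stretch ran from Solyc07g008475 to Solyc07g008630, where 8 of 17 genes with reads were members, 4 higher and 4 lower. The higher members were a subtilisin-like protease (Solyc07g008475, 0.760 CPM in WT CT and 6.91 to 7.60 CPM as group means of the lines in CT), a pentatricopeptide repeat protein of the kind that processes organelle RNA (Solyc07g008480), a KH domain RNA-binding protein (Solyc07g008495) and the purple acid phosphatase. The lower members were Solyc07g008550 and 3 receptor-like proteins, EIX1 (Solyc07g008620), EIX2 (Solyc07g008630) and receptor-like protein 12 (Solyc07g008590). The EIX proteins of tomato bind a fungal xylanase that induces ethylene, and EIX2 passes on the defence signal. EIX1 was at 11.3 ± 1.91 CPM in WT CT and 4.20 to 5.60 CPM as group means of the lines in CT. EIX2 was at 1.25 to 2.64 CPM in WT and at most at 0.235 CPM in a line library. These 3 genes belong to a family of similar sequences, so that their reads may be divided unequally in counting.

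A little before it on the same chromosome, Solyc07g008107 to Solyc07g008250 held 4 members, all higher. Among them was Solyc07g008180, with the YABBY domain of transcription factors that shape lateral organs, at 19.5 ± 2.31 CPM in WT CT and 49.0 ± 2.68 CPM in 35S:nahG CT (SD, n = 4 each). Solyc07g008240, a non-symbiotic hemoglobin of class 1, an oxygen-binding protein that scavenges nitric oxide, was at 0.0595 to 0.406 CPM in WT and 1.39 to 28.2 CPM in the lines. The other members there, Solyc07g008107 and Solyc07g008250, had smallest differences of 1.24 and 0.74.

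On chromosome 4, Solyc04g081530 to Solyc04g081810 held 10 members, 3 higher and 7 lower. A cyclin gene (Solyc04g081650), of the family that activates cyclin-dependent kinases, had 3.83 to 6.59 CPM in WT, no read in any library of 35S:nahG or 35S:asCCD7 and at most 5 reads in a Never ripe library. A further 4 lower members there, Solyc04g081630, Solyc04g081660, Solyc04g081670 and Solyc04g081690, had at most 3 reads in every line library. Of these, Solyc04g081660 held 116 to 205 reads in WT and no read in any 35S:nahG library. The higher members were the DnaJ (HSP40) co-chaperone gene Solyc04g081530, Solyc04g081610 and Solyc04g081720. Solyc04g074900 to Solyc04g076050 held 4 members, the lower dihydrofolate reductase gene and 3 higher genes, among them a chloroplast CutA protein (Solyc04g076050, 8.84 CPM in WT CT and 20.0 to 23.6 CPM as group means of the lines in CT).

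The start of chromosome 6 held 2 blocks. Solyc06g005050 to Solyc06g005490 held 8 members among 41 genes with reads, 2 higher (Solyc06g005475 and triosephosphate isomerase) and 6 lower. The lower ones included histone H4, the F-box gene Solyc06g005050, a RAB GTPase of vesicle traffic (Solyc06g005340, 2.75 CPM in WT CT and 0.199 to 0.445 CPM as group means of the lines in CT) and Solyc06g005270 (2.39 CPM in WT CT and at most 0.0394 CPM as a group mean in CT). Solyc06g005840 to Solyc06g006040 held 4 lower members, among them a glycosyl hydrolase of family 3 (Solyc06g005960, 53.0 CPM in WT CT) and a protein kinase (Solyc06g006020, 3.19 CPM). The ROC5 gene, on the same chromosome, lay outside both blocks.

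On chromosome 2, the 6 members from Solyc02g079530 to Solyc02g079740 were all lower, and apart from both kinases they included Solyc02g079740, a U-box E3 ubiquitin ligase that attaches ubiquitin to target proteins (41.1 CPM in WT CT and 10.2 to 18.1 CPM as group means of the lines in CT). Solyc02g079555 had 0.326 CPM in WT CT and no read in the 12 line libraries of CT, at least 3.82-fold lower. On chromosome 12, Solyc12g005570 to Solyc12g005760 held a lower gene and 2 higher ones, a potassium transporter domain protein (Solyc12g005680) and a peroxisome biogenesis protein (Solyc12g005760), and Solyc12g006225 to Solyc12g006370 held 3 lower genes, among them an amine oxidase domain protein (Solyc12g006370). On chromosome 10, Solyc10g050320, Solyc10g050323 and Solyc10g050325 were all higher and were the only genes with reads in their span.

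An annotation was found for 67 of the 150 members, from the study's supplementary text. By words in it, 5 members were receptor kinases or receptor-like proteins (1 higher, 4 lower), 3 matched words for heat shock proteins (1 higher, 2 lower), 3 had F-box domains (1 higher, 2 lower) and 2 were named as transcription factors (both lower), a count that leaves out the higher YABBY domain gene Solyc07g008180. Of the 3 heat shock matches, the lower gene Solyc09g075210 is Lea5, a late embryogenesis abundant protein gene. No member fell among cytochrome P450 enzymes, glycosyltransferases, disease resistance proteins or transposon-related genes by those words. The words were not counted over all genes, so these counts have no background. The higher receptor kinase was Solyc01g014530, of the G-type lectin class, at 0.243 to 1.22 CPM in WT and 2.43 to 9.61 CPM in the lines. Of gene sets the study compiled, that for pollen development held 0 members of 243 genes with reads, that for the heat shock response 2 of 196 (Solyc04g081530 and Solyc04g011440), that for carbohydrate metabolism 1 of 119, that for carbohydrate transport 0 of 68 and that for the abscisic acid response 1 of 322. Among all 28060 genes with reads, 150 were members. The carbohydrate gene was LIN9 (Solyc08g079080), annotated as a vacuolar invertase, an enzyme that splits sucrose, and was lower in the lines, with 4.15 ± 1.12 CPM in WT CT (SD, n = 4) and at most 2.43 CPM in any line library. The abscisic acid response gene was Solyc08g006850, a patatin-like lipid hydrolase, at 4.08 CPM in WT CT and 0.667 to 1.59 CPM as group means of the lines in CT.

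Comparisons that were not part of the selection were those between temperatures within a line and those among the 3 lines. They used the same libraries as the selection, so they are not independent of it. Genes were tested with the quasi-likelihood test of edgeR and called at an adjusted p under 0.05 and at least a 1.5-fold change, with adjustment over all genes tested. Between LTMH and CT in WT, 33 of 126 members tested were called (26.2%), beside 17.9% of all genes tested. The shares were 37 of 121 (30.6%) beside 27.9% in 35S:nahG, 13 of 121 (10.7%) beside 9.00% in Never ripe and 14 of 119 (11.8%) beside 7.92% in 35S:asCCD7. The share among members tested was above that among all genes in each line, widest in WT, and this difference was not tested. Of the 150 members, 86 were called in none of the 4 lines, but only 94 were tested in all 4. No share over all genes is given for that count. In WT, 49 of the higher members and all 77 lower members were abundant enough to be tested, and in the lines all 73 higher members and 46 to 48 lower ones. Over the members tested, the median log2 fold change lay between −0.05 and 0.11, beside medians within 0.01 of 0 over all genes.

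**Figure D4:**
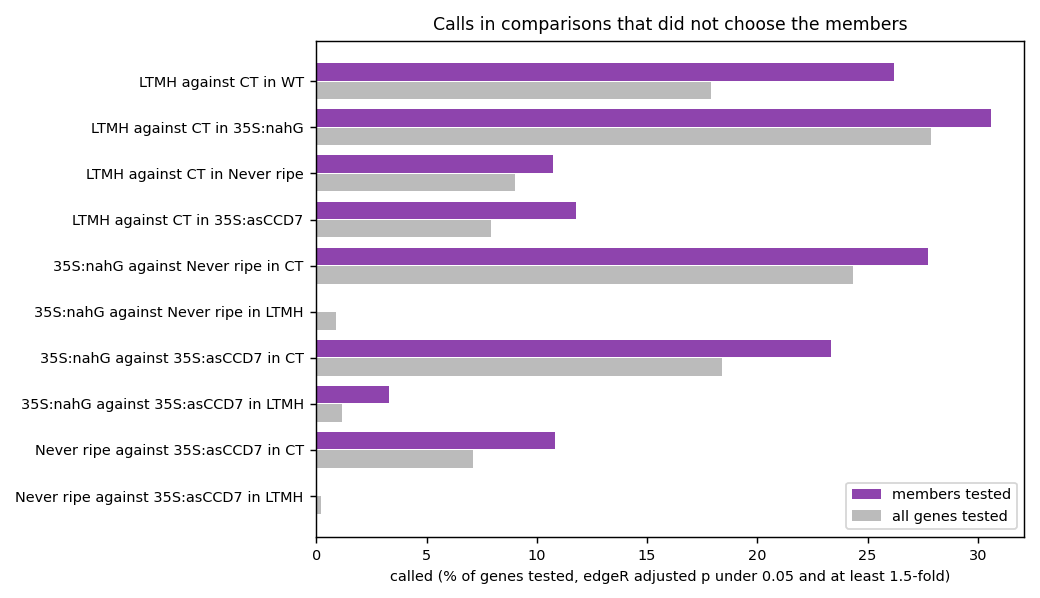
Share of members tested (purple) and of all genes tested (grey) that were called, in percent, in 4 comparisons of temperatures and 6 of lines. Shares in purple lie above those in grey between temperatures and among the lines in CT, and among the lines in LTMH they are 0, 3.31 and 0%.

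In WT, 21 of 126 members tested rose and 12 fell in LTMH, where 1839 of all 20314 genes tested rose and 1793 fell. Lower members made up 77 of the 126 tested, 15 of those that rose and 7 of those that fell. These splits were not tested. Of the 94 members tested in all 4 lines, 3 rose in each line and 1 fell in each, where 1.28% of the 19537 genes tested in all 4 rose and 0.573% fell. Hsp70-5 (Solyc04g011440), a chaperone of the HSP70 family that holds unfolded proteins, rose from 7.09 ± 4.20 to 36.1 ± 16.9 CPM in WT (log2 fold change 2.29, SE 0.47, adjusted p = 0.00662). It rose from 2.59 to 16.0 CPM in 35S:nahG (2.54, SE 0.31, adjusted p = 0.000134), from 1.74 to 20.3 CPM in Never ripe (3.34, SE 0.54, adjusted p = 0.00642) and from 3.59 to 16.3 CPM in 35S:asCCD7 (2.06, SE 0.45, adjusted p = 0.0201). Its libraries overlapped widely between lines, with 3.22 to 12.5 CPM in WT CT and 1.60 to 5.67 CPM in 35S:asCCD7 CT. Without replicate 2 of 35S:asCCD7 CT the call in that line was lost, at 1.81.

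Solyc08g079430, without annotation, rose from 28.9, 30.3, 26.2 and 32.8 CPM in WT CT to 82.2, 79.9 and 86.2 CPM in WT LTMH (log2 fold change 1.42, SE 0.07, adjusted p = 1.65e-05). In the lines it rose by 1.02 in 35S:nahG, 0.93 in Never ripe and 0.84 in 35S:asCCD7, with adjusted p-values of 0.00545, 0.00394 and 0.0232, and in 35S:asCCD7 the call was lost without any of 3 of the 8 libraries in turn, at 0.80 to 0.88. The U-box gene Solyc02g079740 rose by 0.73, 1.19, 0.83 and 0.94 in WT, 35S:nahG, Never ripe and 35S:asCCD7, with adjusted p-values of 0.00863, 4.3e-06, 0.0317 and 0.0268. The calls in Never ripe and 35S:asCCD7 rest on few libraries, since without any of 6 of the 7 Never ripe libraries in turn it was no longer called there, at 0.58 to 0.87. In 35S:asCCD7 the call was likewise lost without any of 7 of the 8 libraries in turn.

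The gene that fell in all 4 lines was Solyc01g066450, an alpha/beta-hydrolase, from 44.4 ± 2.25 to 21.7 ± 3.55 CPM in WT (log2 fold change −1.10, SE 0.11, adjusted p = 0.000287). It fell by 1.22 in 35S:nahG, 2.19 in Never ripe and 1.69 in 35S:asCCD7, with adjusted p-values of 1.55e-05, 0.00298 and 0.00415. Solyc04g081810, the most abundant member, fell from 5256 ± 653 to 1016 ± 508 CPM in WT (−2.43, SE 0.32, adjusted p = 0.000926) and by 3.89 in 35S:asCCD7 (SE 0.48, adjusted p = 0.00273). In 35S:nahG it was already at 457, 1417, 115 and 388 CPM in CT. Its Never ripe LTMH libraries, at 973, 1829 and 106 CPM, overlapped with those of WT LTMH, at 1602, 763 and 685 CPM. Of these Never ripe libraries, only that at 106 CPM lay below all of WT LTMH. Solyc07g008550 fell from 18.4 to 2.85 CPM in WT (−2.76, SE 0.59, adjusted p = 0.00752) and from 4.71 to 0.789 CPM in 35S:nahG (−2.66, SE 0.24, adjusted p = 2.25e-05).

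Solyc07g051980 fell by 2.85 in WT (SE 0.89, adjusted p = 0.0361) and by 4.15 in 35S:nahG (SE 0.43, adjusted p = 5.01e-05), and in WT the call was lost without any of the 3 LTMH libraries in turn, at −3.58 to −2.43, and in the fit of all 29 libraries. Solyc06g005720 fell by 0.61 in 35S:nahG, 1.03 in Never ripe and 1.00 in 35S:asCCD7, with adjusted p-values of 0.0254, 0.00959 and 0.0110, and in 35S:nahG the call was lost without any of 4 of the 7 libraries in turn, at −0.61 to −0.41. By sign alone, 19 of the 94 members tested in all 4 lines had a positive log2 fold change in each, 24 a negative one and 51 a mixture of signs. The co-chaperone gene Solyc04g081530 rose in WT from 0.673 to 2.27 CPM (1.69, SE 0.33, adjusted p = 0.00505), in Never ripe (1.55, adjusted p = 0.00406) and in 35S:asCCD7 (1.40, adjusted p = 0.0257), and in 35S:nahG it was at 3.89 CPM in CT and 8.43 CPM in LTMH and was not called.

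Only 1 member was called in opposite directions, the sesquiterpene synthase gene Solyc12g006570, which was picked out after its values were seen. Such enzymes make volatile C15 terpenes. It stood at 0.152 to 1.61 CPM in WT. In Never ripe it was at 239, 236, 197 and 306 CPM in CT and fell to 95.8, 32.7 and 126 CPM in LTMH (−1.72, SE 0.41, adjusted p = 0.0244). In 35S:nahG it rose from 2.42, 1.33, 1.59 and 1.03 CPM to 39.1, 44.4 and 79.8 CPM (5.02, SE 0.33, adjusted p = 2.78e-06), and in 35S:asCCD7 from 1.21, 3.18, 1.30 and 0.775 CPM to 6.71, 14.6, 58.7 and 15.7 CPM (3.76, SE 0.72, adjusted p = 0.0128). In CT, 35S:nahG was lower than Never ripe by 7.40 (SE 0.26, adjusted p = 3.57e-08), and in WT the gene was not called between temperatures.

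**Figure D5:**
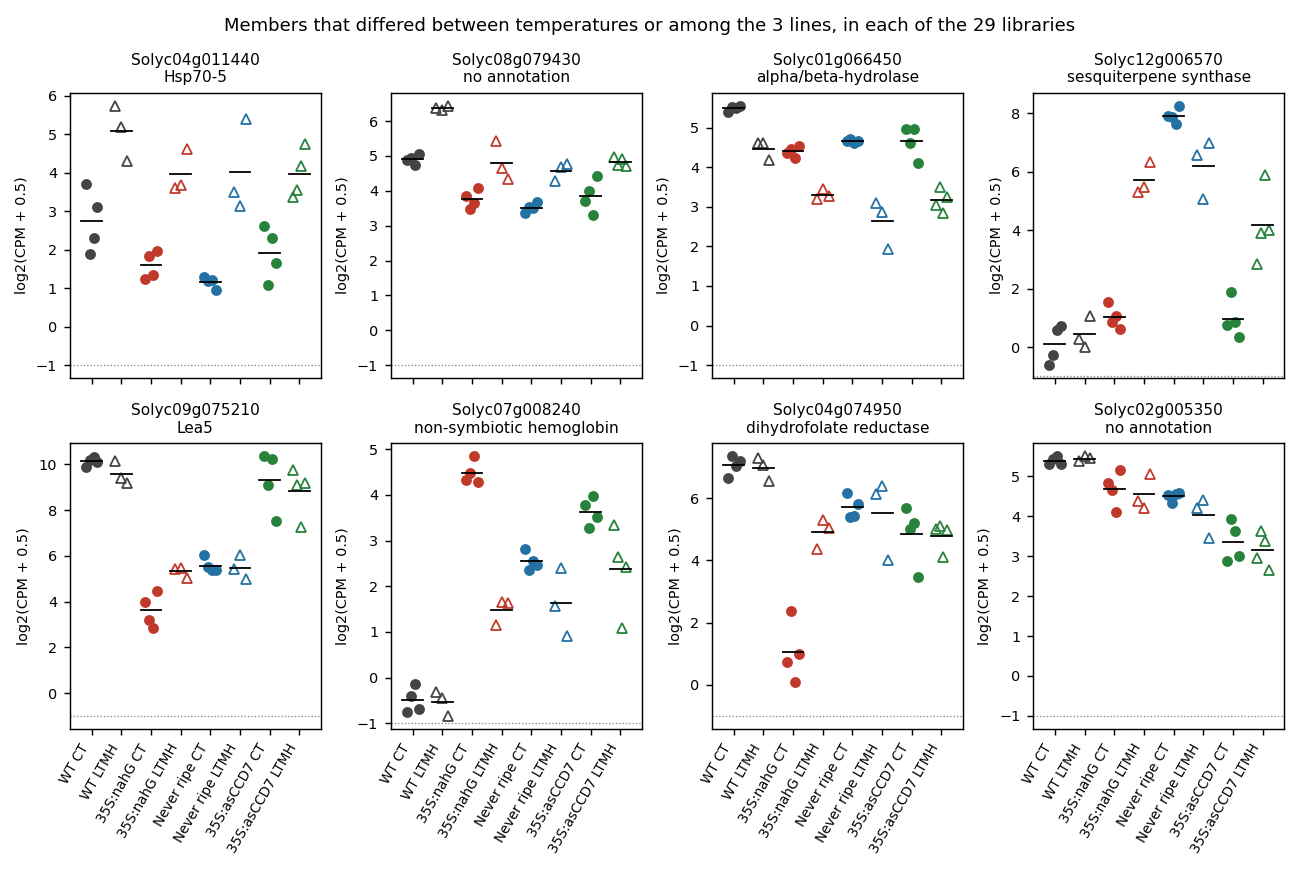
Level of 8 members in each library, as log2(CPM + 0.5), by line and temperature, with symbols as in the plot of members by library. Hsp70-5 and Solyc08g079430 rise and the hydrolase gene falls from CT to LTMH in every line, and the other 5 differ among the lines.

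Among the lines in CT, 33 of 119 members tested were called between 35S:nahG and Never ripe (27.7%, beside 24.3% of all genes), 28 of 120 between 35S:nahG and 35S:asCCD7 (23.3% beside 18.4%) and 13 of 120 between Never ripe and 35S:asCCD7 (10.8% beside 7.09%). In LTMH the counts were 0 of 120 (beside 0.892% of all genes), 4 of 121 (3.31% beside 1.15%) and 0 of 121 (beside 0.221%) in the same order. For the 2 counts of 0, edgeR gave 21 and 14 members at an unadjusted p under 0.05, and DESeq2 called 5 and 4 (beside 1.74 and 0.976% of all genes). No share over all genes is given at that unadjusted p, so the counts of 21 and 14 cannot be set beside a background. The 26 members tested in no comparison of lines were all lower ones, and the choice of members, which asks for a shared direction, disfavours large differences among the lines.

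The 4 members called between 35S:nahG and 35S:asCCD7 in LTMH were Lea5, Solyc02g005350, Solyc01g057805 and Solyc12g036727, the last pair picked out after their values were seen. Lea5, a protein of the class that accumulates in drying seeds and pollen, was at 1126 ± 151 CPM in WT CT, 13.1 ± 6.84 CPM in 35S:nahG CT, 48.1 ± 11.9 CPM in Never ripe CT and 813 ± 540 CPM in 35S:asCCD7 CT (SD, n = 4 each). In LTMH it was at 794 ± 304, 39.7 ± 6.31, 46.4 ± 17.5 and 534 ± 288 CPM (n = 3, 3, 3 and 4). The 35S:asCCD7 libraries overlapped with those of WT, at 1303, 548, 1219 and 181 CPM in CT. Between 35S:nahG and 35S:asCCD7 the log2 fold change was −5.95 (SE 0.73, adjusted p = 0.000344) in CT and −3.73 (SE 0.54, adjusted p = 0.0124) in LTMH, and the call in LTMH was lost without any of the 3 35S:nahG libraries or replicate 4 of 35S:asCCD7, at −3.82 to −3.63.

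Solyc02g005350 was lowest in 35S:asCCD7, with 6.88, 14.6, 11.9 and 7.55 CPM in CT, where 35S:nahG had 26.1 ± 7.75, Never ripe 22.2 ± 1.78 and WT 41.6 ± 2.63 CPM (SD, n = 4 each). It was 1.38 higher in 35S:nahG than in 35S:asCCD7 in CT (SE 0.29, adjusted p = 0.00529) and also higher in LTMH, at 23.8 ± 7.97 beside 8.67 ± 2.67 CPM (adjusted p = 0.0436). Without any of 5 of the 7 libraries in turn the call in LTMH was lost, at 1.16 to 1.66. Lea5 and the hemoglobin gene were the 2 members called in all 3 comparisons of lines in CT. The hemoglobin gene was at 22.1 ± 4.26 CPM in 35S:nahG CT, 12.2 ± 2.70 CPM in 35S:asCCD7 CT (SD, n = 4 each) and at most 6.53 CPM in the 4 libraries of Never ripe CT, and it fell in 35S:nahG to 2.32 ± 0.518 CPM in LTMH (−3.34, SE 0.21, adjusted p = 2.12e-06).

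Dihydrofolate reductase makes the tetrahydrofolate that nucleotide synthesis needs. Its gene was at 1.18, 4.63, 0.558 and 1.48 CPM in 35S:nahG CT and at 20.0, 38.7 and 32.2 CPM in 35S:nahG LTMH (3.87, SE 0.50, adjusted p = 0.000202), where WT had 134 CPM in CT and 128 CPM in LTMH on average. Its CT level in 35S:nahG was below that in Never ripe by 4.87 (SE 0.45, adjusted p = 1.66e-05) and below that in 35S:asCCD7 by 4.03 (SE 0.66, adjusted p = 0.00158). The purple acid phosphatase gene rose in 35S:nahG from 20.2 ± 5.77 to 60.6 ± 3.66 CPM (adjusted p = 6.54e-05), and its CT level in 35S:nahG was below that in Never ripe by 1.34 and below that in 35S:asCCD7 by 1.48, with adjusted p-values of 8.02e-05 and 0.000276. The ROC5 gene, at the limit of its range in the lines, rose in 35S:nahG by 2.68 (SE 0.49, adjusted p = 0.00155), from at most 0.174 CPM to at least 0.406 CPM.

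A test of whether the heat response differed among the 3 lines, added after the data were seen, used the 22 line libraries in a single edgeR fit. It gave 25 of 127 members tested (19.7%) at an adjusted p under 0.05, beside 26.0% of all genes tested. For the sesquiterpene synthase, dihydrofolate reductase and hemoglobin genes its adjusted p was 4.33e-05, 0.00145 and 0.0127. For Hsp70-5, Solyc08g079430, Solyc02g079740 and Solyc01g066450 it was 0.337, 0.890, 0.642 and 0.104.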

How the data were processed

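Anther RNA was sequenced by the authors from poly(A)-selected libraries of 4 lines at 2 temperatures. The authors aligned reads with HISAT2 2.0.5 to the tomato genome and counted them with featureCounts 1.5.0-p3, and whole-number read counts per gene were used as deposited. The deposited FPKM values, which the authors made per kilobase of gene length and per 1000000 reads, served only for levels between genes and for an alternative selection. Their scaling departed from the count totals by 0.911 to 1.15 between libraries relative to the first WT CT library.

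The members and lists were chosen with earlier results of these data known. Columns were matched to samples by title. Counts were tested in R 4.3.3 with edgeR 4.0.16 (filterByExpr at a minimum count of 10, TMM, glmQLFit and glmQLFTest, two-sided, Benjamini-Hochberg adjustment over all genes tested) on the libraries of each comparison, with SE computed as the log2 fold change over the square root of F. On simulated data with 200 genes changed 3-fold, 99.5% were recovered for LTMH against CT in WT and 99.0% for 35S:nahG against Never ripe in CT. Recovery of smaller changes, and recovery in the comparisons of lines in LTMH, was not tested. Alternatives to the tests were RLE normalization, a single fit of all 29 libraries, DESeq2 1.42.0, a replicate block, calls without a minimum fold change, no filter on low counts, and omission of each library in turn, and for the selection TMM-scaled CPM, pseudocounts of 0.1 and 2, group medians and FPKM. Named genes were the 12 higher and 12 lower members with the largest minimum difference, the 3 genes on each side of the edge, up to 5 members in each direction with the largest median heat response among those called the same way in all 4 lines (in 2 or more if fewer than 3 were), up to 6 called the same way between 2 lines at both temperatures, block members and the 5 with the highest FPKM. Others are named for their annotation or said to have been picked out later. No sequence or coordinate is printed. Python 3.11.15 and matplotlib 3.10.9 made the figures.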

Additional observations from a re-analysis of the deposited data

Results flagged for a closer look

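In 38 members named in the text, the highest or lowest library stood apart from the other 3 in 14 of 190 groups of 4 libraries. About 1 in 20 would be flagged for normally distributed values. That rate does not hold at the read floor, where any read beside 3 libraries without reads is always flagged. Groups without any read were counted but cannot be flagged. Solyc07g008560, the purple acid phosphatase gene, had 16.5 CPM in replicate 1 of 35S:asCCD7 LTMH and 57.6 to 63.7 CPM in the others. Solyc06g035940, the ROC5 gene, had 5.82 CPM in replicate 3 of 35S:asCCD7 LTMH and 0.0281 to 0.637 CPM in the others. In the same library Solyc04g081660 had 0.0305 CPM and Solyc04g081670 had 0.0914 CPM, where the other 3 had no read. Replicate 1 of Never ripe CT stood apart for 3 genes, with 1.42 CPM of Solyc02g079550 beside 0.378 to 0.407, 0.0578 CPM of Solyc04g081660 beside no read, and 65.7 CPM of Lea5 (Solyc09g075210) beside 40.6 to 44.8. Replicate 2 of WT CT had 7.06 CPM of Solyc04g064763 beside 0.848 to 1.39, and 1.10 CPM of its neighbour Solyc04g064765 beside 0.121 to 0.203.

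Solyc07g051980 had 1.68 CPM in replicate 3 of WT CT beside 0.273 to 0.508, and 9.70 CPM in replicate 2 of 35S:nahG CT beside 16.2 to 17.4. Solyc07g061930 had 6.64 CPM in replicate 3 of 35S:nahG CT beside 7.75 to 7.91, Solyc03g096260 had 0.0590 CPM in replicate 4 of 35S:nahG CT beside no read, and Solyc07g008550 had 2.42 CPM in replicate 3 of 35S:asCCD7 CT beside 0.631 to 0.935.

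The heat response differed among the 3 lines by the edgeR interaction test in 9 of the 33 of these genes that were tested, beside 26.0% of all genes tested. The sesquiterpene synthase, dihydrofolate reductase, hemoglobin and LIN9 genes were added to this list by hand. The first 3 of them are among the 9, so the count cannot be read against that background. Adjusted p-values were 4.33e-05 for the sesquiterpene synthase gene Solyc12g006570, 0.00145 for the dihydrofolate reductase gene Solyc04g074950, 0.00372 for Solyc07g008560, 0.0127 for the hemoglobin gene Solyc07g008240 and 0.0130 for Solyc07g008550. They were 0.0346 for Solyc04g064763, 0.0444 for Solyc04g081810, 0.0463 for Solyc04g050245 and 0.0465 for Solyc12g006260.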

How the results depend on the processing

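Called members between lines in LTMH depended most on the processing. With all 29 libraries in one fit, 1, 10 and 12 members were called for 35S:nahG against Never ripe, 35S:nahG against 35S:asCCD7 and Never ripe against 35S:asCCD7 (1.67, 3.75 and 2.75% of all genes tested in that fit), with DESeq2 5, 8 and 4 (1.74, 2.24 and 0.976% of all genes), and leaving out each library in turn 0 to 9, 0 to 9 and 0 to 1. Between temperatures, leaving out each library gave 8 to 15 in Never ripe and 7 to 16 in 35S:asCCD7, and the single fit gave 22 in 35S:asCCD7. Without the fold change threshold 56 members were called between temperatures in 35S:nahG, 44 between 35S:nahG and 35S:asCCD7 in CT and 20 between Never ripe and 35S:asCCD7 in CT. No share over all genes is given for these counts, those between temperatures or those on leaving out a library. They show only how the number of members called moved. The number of genes past the threshold of the selection was 315 with a pseudocount of 0.1 and 109 with a pseudocount of 2, where 97 of the members remained. The cause was not tested.

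Same-numbered samples did not deviate together (correlations from −0.52 to 0.27, in no comparison all above 0.1), so the replicate numbers do not pair the samples. With the replicate block, 7 members were called between temperatures in Never ripe, 7 in 35S:asCCD7 and 0 between 35S:nahG and 35S:asCCD7 in LTMH, and the other counts stayed within 1.5 times. The share over all genes under the block is not given. No direction reversed in the 39 calls that were checked. These belonged to genes named for a shared heat response or for a difference between lines at both temperatures. Directions of other genes were not checked. Of the checked calls, 9 of 39 were lost under the block, and 38 of 287 cases were lost on leaving out a library. At the median depth, genes under 0.0870 CPM rest on fewer than 3 reads.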
